A study of Mus musculus with 4 samples.

Results

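The genes described here are 10 markers of the non-immune cells that build blood vessels and connective tissue, chosen by name from the 54532 genes of the deposited table. They comprise 6 endothelial markers (Pecam1, Cdh5, Kdr, Flt1, Tek and Cldn5), 2 pericyte markers (Pdgfrb and Rgs5) and 2 fibroblast markers (Col1a1 and Col1a2). They were measured by bulk RNA sequencing in tumour-associated macrophages of mice carrying glioblastoma xenografts. The sort kept live cells (no DAPI) that carried CD45 and CD11b and lacked Gr1, so cells without the leukocyte antigen CD45 should be few. The 2 control libraries and the 2 libraries of the MK-8931 group (verubecestat, which inhibits the protease BACE1) share the same xenograft source and gate. The protocol text in the labels gives a treatment of 3 days and speaks of glioma stem cells, while the cell type entry names sorted macrophages, and the sources used here give no mouse age, dose or graft line. The labels do not tie the libraries to different mice, and the p-values rest on the spread among 4 libraries, which may be technical.

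Endothelial cells line vessels and are held together by VE-cadherin (Cdh5), PECAM-1 (Pecam1) and, in the blood-brain barrier, claudin-5 (Cldn5). They sense vascular endothelial growth factor through the receptors encoded by Kdr and Flt1, and angiopoietins through the receptor encoded by Tek. Pericytes wrap capillaries and depend on platelet-derived growth factor signalling through the receptor encoded by Pdgfrb, while fibroblasts lay down type I collagen, a triple helix of chains encoded by Col1a1 and Col1a2. Some of these genes are not restricted to the cells they mark: Pecam1 and Flt1 are also expressed by monocytes and other leukocytes, and Tek by a subset of monocytes.

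Library totals lay between 18257930 and 20179875 counts, and 18258 to 20075 genes were detected. All 15 markers of the macrophage list were present, with mean levels between 25.8 and 3697 FPKM (a level scaled for gene length and sequencing depth) and a median of 318. In these libraries 120 of 13932 genes rose with MK-8931 and 19 fell (edgeR quasi-likelihood test, Benjamini-Hochberg adjusted p under 0.05), so 0.998% of tested genes were called in either direction, 0.861% as higher and 0.136% as lower. Markers of neutrophils differed most among the other cell types, with 9 of 10 tested genes higher and a summed level of 86.4 to 87.0 CPM (counts scaled to library depth by TMM) in controls and 578 to 969 CPM with MK-8931. Elane, which defines neutrophil precursors, had no count in any library, and Ly6g had 14 counts, all in MK-8931 2.

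Of the 10 markers, 8 had enough counts to be tested and 0 passed the threshold in edgeR, 0 higher and 0 lower, where 0.861% and 0.136% of all tested genes passed. At an unadjusted p under 0.05 there were 2 of 8, Pecam1 and Cdh5, where 10.8% of all tested genes lay below it. Limma-voom called 0 of the 8 markers, where it called 1.08% of all genes, and DESeq2 called 1, Pecam1, where it called 2.8% of genes with an adjusted p. Without control 1, edgeR called 3 of the 8, Pecam1, Col1a1 and Col1a2, where it called 5.13% of all genes. The MK-8931 libraries lay on one side of both controls for 5 of the 8, beside 41.2% of all genes tested. They lay above for 1 and below for 4, beside 21.2% and 20% of all genes tested. The 4 below include Pdgfrb, whose full range over the libraries was 1.09-fold. Within the endothelial group Pecam1 and Cdh5 had fold changes of opposite sign.

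**Figure D1:**
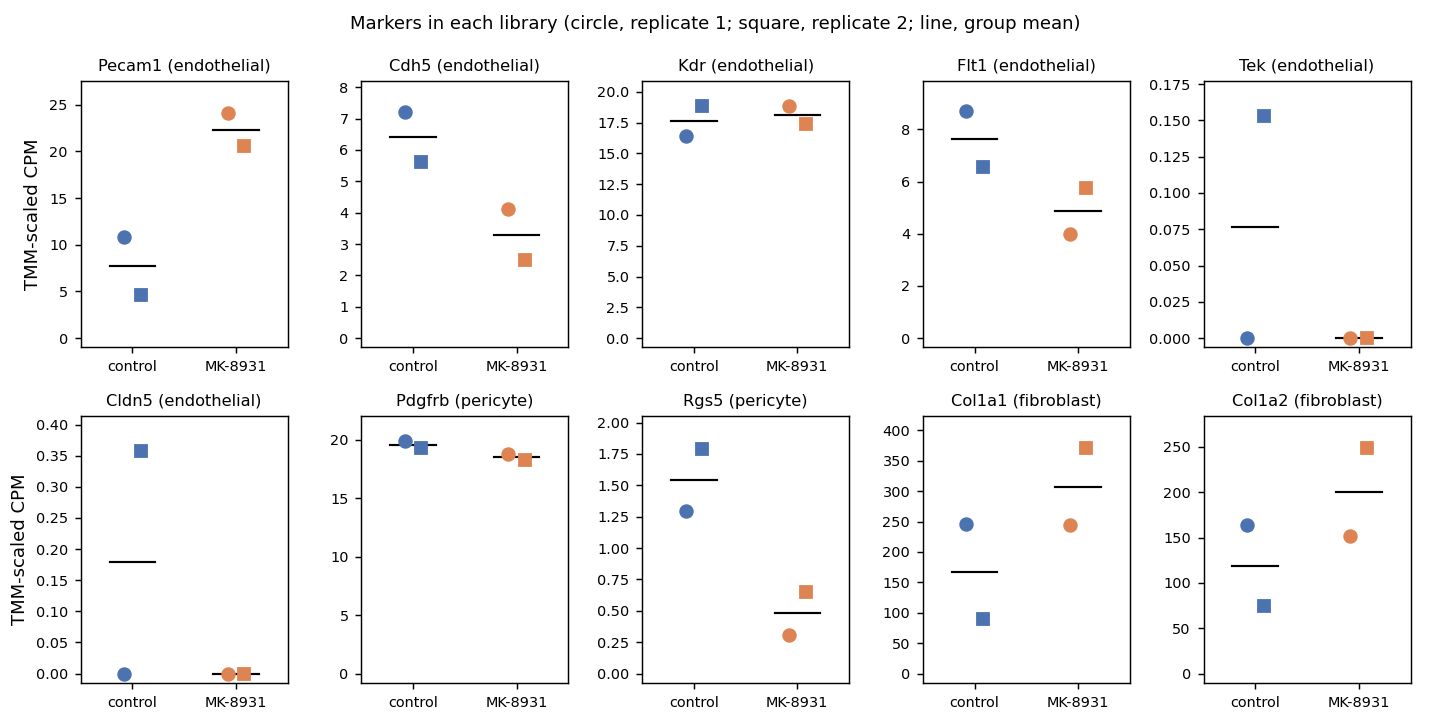
TMM-scaled CPM of each marker in the 4 libraries, on an axis from 0 that differs between panels; circles are replicate 1, squares replicate 2 and lines the group means. Pecam1 is higher in both MK-8931 libraries (20.6 and 24.1 CPM) than in both controls (4.65 and 10.8 CPM), Kdr and Pdgfrb are nearly level, and the collagen genes are lowest in control 2.

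As means per gene length, only Col1a1 reached the range of the macrophage genes, near its lower end (lowest 25.8 FPKM, median 318). Col1a2 stood below that range and the other markers far below it. The lowest macrophage gene was Ptprc, with a deposited length of 18313 bases. Not scaled for length, mean CPM was 237 for Col1a1 and 475 for Ptprc. In control 2 Col1a1 stood at 13.7 FPKM and Ptprc at 20.6 FPKM. Mean FPKM over the 4 libraries was 35.9 for Col1a1, 12.8 for Col1a2, 3.47 for Pdgfrb, 2.40 for Pecam1, 1.97 for Kdr, 1.15 for Cdh5, 0.461 for Flt1, 0.222 for Rgs5, 0.063 for Cldn5 and 0.0082 for Tek. Set against Csf1r, the receptor for macrophage colony-stimulating factor, Col1a1 was at 11.3% of its mean FPKM, Pdgfrb at 1.09% and Cdh5 at 0.362%. Neighbours in this order kept their order in all 4 libraries for Col1a1 over Col1a2, Col1a2 over Pdgfrb, Kdr over Cdh5, Cdh5 over Flt1, Flt1 over Rgs5, and Rgs5 over Cldn5. Pdgfrb exceeded Pecam1 in 3 of 4 libraries and Pecam1 exceeded Kdr in 2 of 4, both of them MK-8931 libraries. The FPKM ratio of Pecam1 to Kdr was 0.956 and 0.358 in controls 1 and 2, and 1.85 and 1.71 in MK-8931 1 and 2. The ranges over libraries were apart only for Col1a2 over Pdgfrb and Kdr over Cdh5. Cldn5 and Tek were each detected in 1 library only.

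**Figure D2:**
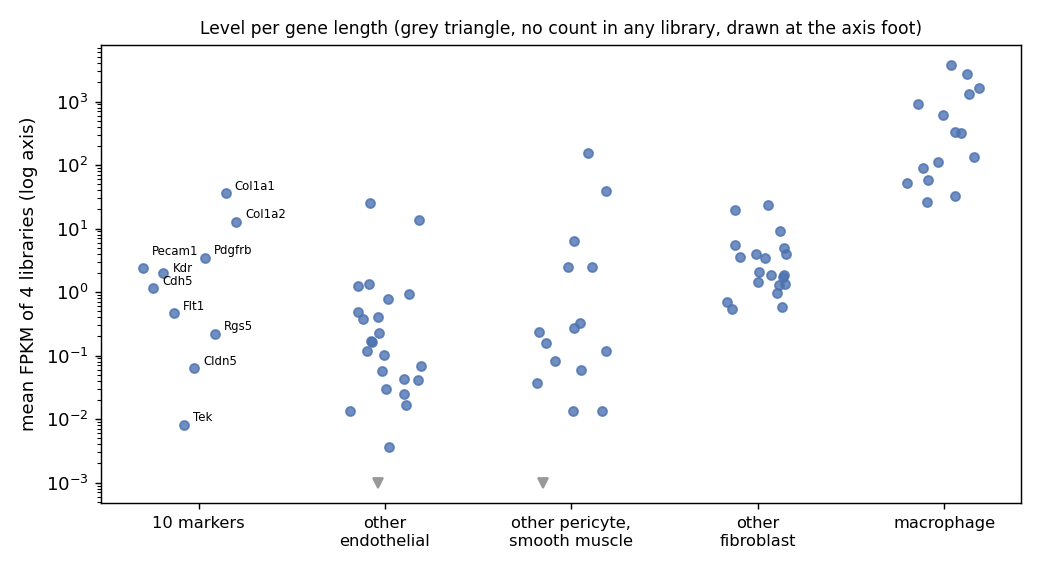
Mean FPKM of the 4 libraries on a log axis for the 10 markers, for other endothelial, pericyte or smooth muscle and fibroblast genes, and for 15 macrophage genes; each point is a gene, and grey triangles at the foot are genes with no count. The macrophage genes lie between 25.8 and 3697 FPKM, and of the markers only Col1a1, at 35.9, reaches that range.

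Pecam1 (ENSMUSG00000020717, chromosome 11, 106654217 to 106750628, GRCm38, minus strand) encodes an adhesion molecule of endothelial junctions, platelets and leukocytes. It had 201 and 91 counts in controls 1 and 2, and 469 and 378 in MK-8931 1 and 2, or 10.8 and 4.65 CPM against 24.1 and 20.6 CPM. Both treated libraries were above both controls, and the controls differed between themselves by 2.33-fold. Group means were 7.74 ± 4.37 and 22.3 ± 2.48 CPM (SD, n = 2). The fitted log2 fold change was 1.53 (SE 0.35, 95% interval 0.74 to 2.32, edgeR adjusted p = 0.0993). The gene ranked 263 of 13932 by p. Its call depended on the analysis: 5 of 10 alternatives called it higher. The 5 include the fits without control 1 and without control 2, in which the single control is assumed to vary like the treated pair. The log2 fold change was 2.25 without control 1 and 1.04 without control 2. With all 4 libraries kept, the edgeR adjusted p ran from 1.38e-07 (no filter on low counts) to 0.123 (scaling by library size alone). In the authors' deposited table Pecam1 has a log2 fold change of 1.52 and an adjusted p of 0.0026.

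Pecam1 is also a gene of neutrophils and platelets. The neutrophil list had 9 of 10 tested genes higher, with the summed levels given above, although the sort kept Gr1-negative cells, a gate that removes neutrophils. The platelet list had 2 of 6 tested genes higher, the chemokine genes Pf4 and Ppbp, where 0.861% of all tested genes were higher. Of the 6, however, 3 had a positive and 3 a negative log2 fold change. The platelet sums were 193 to 195 CPM in controls and 359 to 450 CPM with MK-8931. Of the control sums Pf4 alone made 157 and 167 CPM. Of the 11 listed genes 1, the platelet receptor gene Gp1bb, had no count in any library. The MK-8931 libraries lay above both controls for 3 of the 6 tested and below for 0, beside 21.2% and 20% of all genes tested. The part of either cell type in the Pecam1 values was not tested.

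The cadherin gene of endothelium had a fold change of the opposite sign to that of Pecam1, not past the threshold. Cdh5 (ENSMUSG00000031871, chromosome 8, 104101625 to 104144511, plus strand), the gene of VE-cadherin, had 134 and 110 counts in controls and 80 and 46 with MK-8931, or 7.22 and 5.62 against 4.10 and 2.50 CPM. Both treated libraries were below both controls. The log2 fold change was −0.95 (SE 0.36, 95% interval −1.76 to −0.15, edgeR adjusted p = 0.351). Leaving out MK-8931 2 gave −0.65 and leaving out MK-8931 1 gave −1.36. The FPKM ratio of Pecam1 to Cdh5 was 1.01 in control 1, 0.558 in control 2, 3.96 in MK-8931 1 and 5.55 in MK-8931 2, so the pair did not keep a fixed proportion across libraries. In bulk libraries, fewer cells of a type and less RNA per cell cannot be told apart.

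Of the VEGF receptor genes, Kdr was level between groups and Flt1 was lower in both treated libraries, neither past the threshold. Kdr (ENSMUSG00000062960, chromosome 5, 75932827 to 75978458, minus strand), the main signalling receptor of endothelium, had 305 and 369 counts in controls and 367 and 320 with MK-8931, or 16.4 and 18.9 against 18.8 and 17.4 CPM. The groups overlapped, the highest library was 1.15-fold above the lowest, and the log2 fold change was 0.04 (SE 0.19, 95% interval −0.39 to 0.47, edgeR adjusted p = 0.973). Its sign turned with the libraries used, to −0.07 without control 1 and −0.03 without MK-8931 1. Flt1 (ENSMUSG00000029648, chromosome 5, 147561604 to 147726011, minus strand), whose receptor binds VEGF-A and placental growth factor and can act as a decoy, had 162 and 128 counts in controls and 78 and 106 with MK-8931, or 8.72 and 6.54 against 4.00 and 5.76 CPM. The treated libraries were both lower, and the log2 fold change was −0.64 (SE 0.31, 95% interval −1.36 to 0.07, edgeR adjusted p = 0.529). Flt1 ranged from −0.94 without MK-8931 2 to −0.41 without MK-8931 1, negative in each.

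These receptors are related in sequence, and their shared coding sequence was measured. The longest run of identical bases shared by their annotated coding sequences (GENCODE M21, spliced, same strand) is 20 bases long and is shown as the closest exact match of the pair. Untranslated regions and matches with mismatches were not compared:
Kdr and Flt1: tatgatgccagcaagtggga
Read length, and how reads matching several genes were handled, are not stated in the labels.

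The remaining endothelial markers were at the limit of detection. Cldn5 (ENSMUSG00000041378, chromosome 16, 18776847 to 18778262, plus strand), the claudin of the blood-brain barrier, had 7 counts in control 2 and 0 in the other 3 libraries. Tek (ENSMUSG00000006386, chromosome 4, 94739289 to 94874976, plus strand), the angiopoietin receptor gene, had 3 counts in control 2 and 0 elsewhere. A count of 0 allows a level of up to 0.162 CPM in control 1, 0.154 CPM in MK-8931 1 and 0.163 CPM in MK-8931 2 (3 counts, counting error only). Neither gene was tested and no fold is given, since the detected counts came from a single library.

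**Figure D3:**
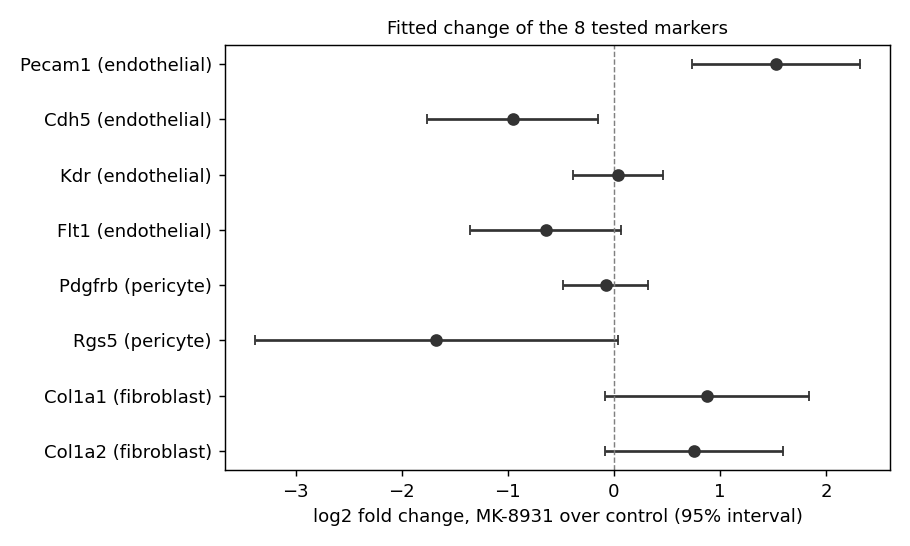
Fitted log2 fold change of MK-8931 over control for the 8 tested markers; points are estimates and bars 95% intervals from the edgeR fit of 2 against 2 libraries. The intervals of Pecam1 (0.74 to 2.32) and Cdh5 (−1.76 to −0.15) lie on opposite sides of 0 before adjustment over all genes, and that of Rgs5 is the widest.

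Other endothelial genes gave no common direction. Of 24 listed genes 12 could be tested, 0 were higher and 0 lower, and the median log2 fold change was 0.18 beside −0.003 for all genes tested. The most abundant per gene length were S1pr1, a sphingosine-1-phosphate receptor that leukocytes also carry, at 25.3 FPKM, and Eng, the endoglin gene also found in macrophages, at 13.8 FPKM. S1pr1 had 1472 and 2152 counts in controls and 1148 and 1133 with MK-8931 (log2 fold change −0.65, SE 0.18, edgeR adjusted p = 0.163). In edgeR 2 of the 12 had an unadjusted p under 0.05, S1pr1 and Icam2, with opposite signs, where 10.8% of all tested genes did. Icam2, chosen after its values were seen, had 25 and 21 counts in controls and 53 and 93 with MK-8931 (1.68, SE 0.49, edgeR adjusted p = 0.204). The median was −0.02 without control 1 and 0.01 without MK-8931 2.

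The list spanned a wide range of counts. Vwf, the von Willebrand factor gene of endothelium and megakaryocytes, had 300 and 248 counts in controls and 309 and 285 with MK-8931, and Tie1, an endothelial receptor kinase gene, had 42 and 54 against 46 and 38. The 12 genes that the filter on low counts left untested, which are low by that choice, had 39 counts together in control 1, 94 in control 2, 26 in MK-8931 1 and 39 in MK-8931 2. The transcription factor gene Erg had 1 count in all libraries together, and the barrier transporter gene Slco1a4 had none. Control 2, the library with the largest total (20179875 counts), held the highest count for 6 of the 12. Among them were Plvap, a gene of fenestrated endothelium, with 35 counts against 8 to 9 elsewhere, and Robo4, a guidance receptor gene, with 17 against 0. The 6 genes named in this paragraph were chosen after their values were seen. Control 2 was also the only library with Cldn5 or Tek counts. By CPM, control 2 was the highest library for 29.9% of all genes tested. Among the 12 tested genes of the list it was the highest for 4 and the lowest for 4.

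The leading ligand and co-receptor genes had higher levels per gene length than the vascular receptor genes. Of 17 genes 14 were tested, 0 were higher and 0 lower, with a median log2 fold change of 0.03 (−0.03 without MK-8931 2). Vegfa, the ligand of both VEGF receptors, stood at 53.4 FPKM (log2 fold change 0.20, SE 0.16) and Nrp2, a neuropilin co-receptor gene, at 40.8 FPKM (0.05, SE 0.12), neither past the threshold (edgeR adjusted p = 0.753 and 0.946). For junctions, 11 of 15 partner genes were tested, 0 were called in either direction and the median was −0.13. The catenin genes Ctnnb1, which encodes beta-catenin, and Ctnna1, which encodes alpha-catenin, led that list at 91.1 and 67.1 FPKM. Both catenins bind cadherins in many cell types.

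Of the pericyte markers, Pdgfrb was nearly constant and Rgs5 was scarce. Pdgfrb (ENSMUSG00000024620, chromosome 18, 61045150 to 61085061, plus strand), the receptor for platelet-derived growth factor B, had 370 and 377 counts in controls and 367 and 336 with MK-8931, or 19.9 and 19.3 against 18.8 and 18.3 CPM. The treated libraries were both below the controls, yet the full range over the 4 was 1.09-fold. The log2 fold change was −0.08 (SE 0.18, 95% interval −0.48 to 0.32, edgeR adjusted p = 0.936). Rgs5 (ENSMUSG00000026678, chromosome 1, 169655501 to 169695813, plus strand), a regulator of G-protein signalling typical of brain pericytes, had 24 and 35 counts in controls and 6 and 12 with MK-8931, or 1.29 and 1.79 against 0.308 and 0.652 CPM. Both treated libraries were lower, with a log2 fold change of −1.67 (SE 0.75, 95% interval −3.38 to 0.04, edgeR adjusted p = 0.480). The value was −1.24 without MK-8931 1 and −2.31 without MK-8931 2. The FPKM ratio of Pdgfrb to Rgs5 was 12.8 and 8.94 in controls and 50.8 and 23.2 with MK-8931.

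Among 16 further pericyte and smooth muscle genes 9 were tested, and 0 were higher and 0 lower past the threshold. Of the 9, 3 had a positive and 6 a negative log2 fold change, with a median of −0.40. It was −0.13 without control 1 and also −0.13 without MK-8931 1. The most abundant were Anpep, an aminopeptidase that myeloid cells also make, at 155 FPKM, and Cspg4, the NG2 proteoglycan gene, at 38.4 FPKM. Cspg4 had 10655 and 10476 counts in controls and 8028 and 5857 with MK-8931, a log2 fold change of −0.60 (SE 0.15, edgeR adjusted p = 0.131). Other genes of the list were spread widely in level, some with no count. Mcam, an adhesion molecule gene, had 482 and 486 counts in controls and 285 and 357 with MK-8931. Abcc9, which encodes the channel partner of the Kcnj8 product, had 46 and 52 against 28 and 45. Kcnj8, a potassium channel subunit gene, had 5 and 9 counts in controls and 0 and 2 with MK-8931, Vtn had 2 counts in all, and Atp13a5 had none. Acta2, a smooth muscle actin gene, went the other way, with 67 and 68 counts in controls and 92 and 108 with MK-8931 (log2 fold change 0.58, SE 0.32). Apart from Anpep and Cspg4, the genes of this list were chosen after their values were seen.

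The type I collagen genes were the most abundant markers, and both were lowest in control 2 and highest in MK-8931 2. Col1a1 (ENSMUSG00000001506, chromosome 11, 94936224 to 94953042, plus strand), the gene of the alpha-1 chain, had 4561 and 1751 counts in controls and 4756 and 6813 with MK-8931, or 246 and 89.5 against 244 and 370 CPM. Control 1 and MK-8931 1 were level, control 2 was lowest and MK-8931 2 highest, so the groups overlapped. Group means were 168 ± 110 and 307 ± 89.4 CPM (SD, n = 2). The fitted log2 fold change was 0.88 (SE 0.41, 95% interval −0.08 to 1.83, edgeR adjusted p = 0.523). Col1a2 (ENSMUSG00000029661, chromosome 6, 4504814 to 4541544, plus strand), the gene of the alpha-2 chain, had 3038 and 1451 counts in controls and 2960 and 4581 with MK-8931, or 164 and 74.1 against 152 and 249 CPM. Its libraries took the same order as those of Col1a1, and the groups again overlapped. Its log2 fold change was 0.75 (SE 0.36, 95% interval −0.08 to 1.59, edgeR adjusted p = 0.529).

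These values depended on single libraries. Without control 2 the log2 fold change was 0.32 for Col1a1 and 0.29 for Col1a2. Without control 1, so that control 2 stood alone, it was 1.77 (edgeR adjusted p = 5.18e-06) and 1.43 (adjusted p = 0.00837), a setting in which the single control is assumed to vary like the treated pair. Without MK-8931 2 it was 0.54 and 0.35. The gap between the controls for Col1a1, 2.74-fold, was exceeded by 5.80% of all genes tested.

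The ratio of the collagen genes was steadier than either level. Col1a1 over Col1a2 in FPKM was 2.84 and 2.28 in controls and 3.04 and 2.82 with MK-8931. Its size depends on the gene lengths in the deposited table, 6563 bases for Col1a1 and 12426 for Col1a2. Collagen chains repeat a short motif, so shared sequence was measured directly. Over the 45 pairs of markers, the longest identical run between coding sequences was that of this pair, at 25 bases. It is shown with its tandem unit of 9 bases, present in 2 copies, in capitals:
Col1a1 and Col1a2: ccctggcCCTGCTGGTCCTGCTGGT

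The upstream window of Col1a2 is shown because the fibroblast genes had similar profiles over the libraries. It covers the 250 bases before the RefSeq start (GRCm38.p6, chr6:4505368-4505617, plus strand) and is upstream by that start only, since it lies inside the Col1a2 span of the deposited table given above. It is printed with the CCAAT match in capitals:
Col1a2: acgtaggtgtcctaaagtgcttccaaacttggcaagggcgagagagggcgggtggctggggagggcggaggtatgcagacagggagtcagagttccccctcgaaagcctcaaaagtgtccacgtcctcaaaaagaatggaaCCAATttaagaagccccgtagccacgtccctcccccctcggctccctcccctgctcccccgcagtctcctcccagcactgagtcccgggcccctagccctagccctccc
The motif CCAAT was searched on both strands (CCAAT or ATTGG). It occurs in 33.8% of 32851 windows of this length, and in those of 3 of the 15 fibroblast genes with an entry in the table, Col1a2 included, so the match only describes this window.

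The 20 other fibroblast genes were also mostly lowest in control 2 and highest in MK-8931 2. All 20 were tested, and 0 were higher and 0 lower past the threshold. In edgeR 7 had an unadjusted p under 0.05, where 10.8% of all tested genes did. A positive log2 fold change was found for 19, and the median over the list was 0.69, beside −0.003 for all genes tested. The MK-8931 libraries lay above both controls for 8 of the 20 and below for 0, beside 21.2% and 20% of all genes tested. Control 2 was the lowest library for 17 of 20 and MK-8931 2 the highest for 18 of 20, against 31.0% and 24.3% of all genes tested. Centred on each gene's mean over the 4 libraries, the list median on the log2 scale was 0.13 in control 1, −0.87 in control 2, 0.15 in MK-8931 1 and 0.57 in MK-8931 2. The median log2 fold change between groups was 1.34 without control 1, 0.26 without control 2, 0.84 without MK-8931 1 and 0.41 without MK-8931 2.

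**Figure D4:**
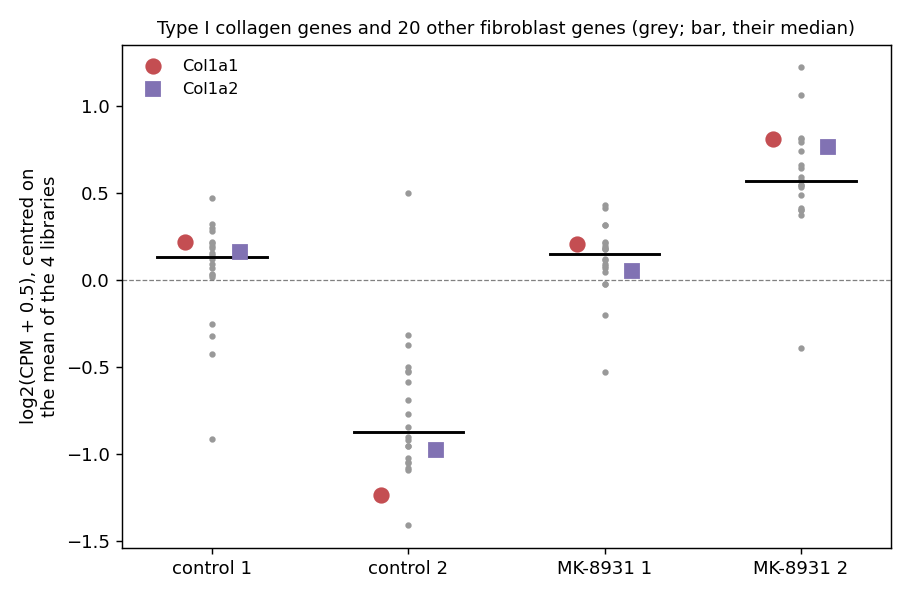
Level of Col1a1, Col1a2 and 20 other fibroblast genes in each library, as log2(CPM + 0.5) centred on the gene's mean over the 4 libraries; grey points are genes and bars their median. The median is −0.87 in control 2 and 0.57 in MK-8931 2, while control 1 (0.13) and MK-8931 1 (0.15) are level.

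The most abundant of these genes per length were Col3a1, the type III collagen gene, at 23.1 FPKM, and Sparc, a collagen-binding glycoprotein gene that macrophages can also express, at 19.5 FPKM. Col3a1 had 4071 and 2105 counts in controls and 4301 and 6745 with MK-8931 (log2 fold change 0.85, SE 0.34, edgeR adjusted p = 0.419). Sparc had 1346 and 973 counts against 1377 and 1913 (0.52, SE 0.23, edgeR adjusted p = 0.471). The fibroblast gene Pdgfra, a receptor for platelet-derived growth factor chosen after its values were seen, had 85, 27, 111 and 182 counts in the same order of libraries (1.39, SE 0.52, edgeR adjusted p = 0.364). Macrophage genes had a different order: control 2 was the highest library for 10 of 15 macrophage markers, beside 29.9% of all genes tested, and the lowest for 2. Their summed level, to which the most abundant genes add most, was 22006 CPM in control 2 against 16141 to 18175 CPM in the other 3. The part of this in the collagen values was not tested.

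Genes that make or modify collagen had a median near that of all genes. All 20 listed genes of collagen synthesis and processing were tested, and 0 were higher and 0 lower. In edgeR 3 had an unadjusted p under 0.05, where 10.8% of all tested genes did. These 3, named after their values were seen, were Serpinh1, Loxl1 and Plod3, with log2 fold changes of 0.97, 1.04 and 0.29 (edgeR adjusted p = 0.249, 0.290 and 0.437). Serpinh1 and Loxl1 were lowest in control 2 and highest in MK-8931 2, while Plod3 was lowest in control 1. Over the 20 genes the log2 fold change was positive for 12 and negative for 8. Its median was 0.05, or 0.15 without control 1 and −0.07 without control 2. Control 2 was the lowest library for 9 of the 20 and the highest for 7, against 31.0% and 29.9% of all genes tested. P4hb and P4ha1, subunits of the prolyl hydroxylase that all collagen-making cells need and that also occur widely, led at 471 and 68.2 FPKM. Of the 12 basement membrane genes, all tested, 0 were called and the median was −0.09. It was 0.22 without control 1 and −0.29 without control 2. Lamc1, the laminin gamma-1 gene, was most abundant at 21.2 FPKM, followed by Lamb2, the laminin beta-2 gene, at 9.41 FPKM. Lamb2 had 1214 and 1533 counts in controls and 866 and 767 with MK-8931 (log2 fold change −0.74, SE 0.15, edgeR adjusted p = 0.0676). Col18a1, a collagen gene chosen after its values were seen, had 235 and 185 against 399 and 462 (1.04, SE 0.22, edgeR adjusted p = 0.0773). Of the 12 genes 5 had a positive and 7 a negative log2 fold change. Over the 7 lists of related genes together, each gene counted once, 96 of 120 genes were tested, 0 passed in edgeR and 22 had an unadjusted p under 0.05, beside 10.8% of all genes tested. Limma-voom called 0 of 96 and DESeq2 called 5 of 86, while edgeR without control 1 called 22 of 98, beside 1.08%, 2.8% and 5.13% of all genes in the same settings.

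Profiles over the 4 libraries were compared with those of 9988 other genes with a mean of at least 5 CPM, by the root mean square distance of centred log2(CPM + 0.5) values. The summed fibroblast markers lay closest to Col5a2, a type V collagen gene (distance 0.057), D330045A20Rik (0.079) and Tnxb, the tenascin-X matrix gene (0.11). The summed endothelial markers lay closest to Zfp644 (0.0079), Sin3a (0.010) and Pwwp2a (0.014). The summed pericyte markers, dominated by Pdgfrb, lay closest to Ndrg3 (0.0036), Hsf2 (0.0063) and Ahcyl1 (0.0092). With 4 libraries such likeness describes the profiles only.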

How the data were processed

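The authors deposited whole-number read counts for each gene, and the deposited FPKM values equal the count divided by gene length times a constant per library. The table also holds the authors' own scaled counts, log2 fold changes and p-values, with no test named. CASAVA and the build mm9 appear in the submitters' processing notes, but the coordinates of all 10 markers, and of 98.3% of 54409 shared genes, are those of GENCODE M21 on GRCm38. No aligner, counter or strand setting is named in the labels. Replicate counts differed beyond sampling noise (chi-square over its degrees of freedom 26.8 for controls, 15.7 for MK-8931).

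Groups were taken from the titles. Genes were kept by filterByExpr (minimum count 10), scaled by TMM, and the groups were compared (MK-8931 over control) by edgeR 4.0.16 (R 4.3.3), quasi-likelihood F test with robust dispersions, two-sided, with Benjamini-Hochberg adjustment over 13932 genes and a threshold of 0.05. SE is the absolute log2 fold change over the square root of F. Limma 3.58.1 (voom) and DESeq2 1.42.0 were among 10 alternatives. FPKM served only to compare genes. Promoter windows are RefSeq's, with entries for 6 of 10 markers. The markers, the 13 other gene lists, tests and alternatives were chosen with earlier results of these data known. Named genes are all markers and, from each list of related genes, called genes and the 2 most abundant per length, plus the 3 genes nearest in profile to each marker group. Csf1r, Ptprc, Elane, Ly6g and Gp1bb fall outside this rule and were chosen with their values known, as were the names marked so in the text.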

Additional observations from a re-analysis of the deposited data

How the results depend on the processing

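The count of markers called was 1 under 3 settings (no filter on low counts, DESeq2, and a block for replicate number), each time Pecam1, against 0 otherwise, and 0 to 3 with a library left out. Among all genes, 366 were higher and 176 lower with no filter, 468 and 275 of 13932 with the replicate block, and 252 and 100 of 12550 with DESeq2. Limma-voom called 30 lower. With a library left out, 85 to 520 were higher and 10 to 243 lower. Of the related genes 12 were called with no filter, 7 with the replicate block, 5 with DESeq2 and 0 to 22 with a library left out. For Pecam1 the log2 fold change was 1.62 with the replicate block (adjusted p = 0.0021), 1.52 with no filter and with DESeq2 (adjusted p = 1.38e-07 and 0.0023), and 1.66 with limma-voom (0.0546). The sign of Kdr reversed without control 1 (−0.067) and without MK-8931 1 (−0.029), within a range of −0.067 to 0.14 with a library left out. The other 7 tested markers kept their direction in all 10 alternatives. Libraries with equal numbers deviated together only weakly (correlation 0.20 over genes), and with 2 pairs and no label for it the numbers were not taken to pair samples. The cause of the differences between settings was not tested. Rgs5, Cldn5 and Tek, with at most 35, 7 and 3 counts in a library, are limited by depth.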

Other observations

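Markers of lymphocytes, brain cells and red cells were also measured. Of 10 lymphocyte genes only Cd79b, a B-cell receptor subunit gene, could be tested, with 122 and 145 counts in controls and 136 and 214 with MK-8931 (log2 fold change 0.41, edgeR adjusted p = 0.725). The natural killer gene Ncr1 had no count in any library. Of 15 astrocyte, oligodendrocyte and neuron genes 3 were tested and 0 called. The most abundant was Mbp, the myelin basic protein gene, with 1322 and 1317 counts in controls and 1210 and 1141 with MK-8931, while Mog, Olig2, Snap25 and Aqp4 had none. None of 7 red cell genes could be tested, and their summed level was 0.109 to 0.460 CPM. Of 15 macrophage genes 1 was called higher, Itgam, the gene of the CD11b antigen used in the sort, with 4091 and 3525 counts in controls and 6386 and 6347 with MK-8931 (log2 fold change 0.75, edgeR adjusted p = 0.0485). Apart from Itgam, the genes in this paragraph were chosen after their values were seen.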
